A study of Mus musculus with 2 samples.

Results

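Histone methyltransferases and demethylases were followed across the cell groups of embryoids and of mouse blastocysts of embryonic day 4.5 (E4.5). Genes were all those with a symbol in either of the deposited count tables. A member's symbol began with Kdm, Kmt, Setd, Smyd, Prmt or Nsd and a digit, or with Suv39h, Ehmt, Ezh, Dot1l, Whsc1 or Carm1. This gave 55 of the 22802 genes. Of these, 4 stand under older symbols: Setd8 (now Kmt5a), Whsc1 (Nsd2), Whsc1l1 (Nsd3) and Prmt10 (Prmt9). The name rule leaves out enzymes with other names, such as Setdb1 and Ash1l, and takes in some that mainly modify other proteins, such as Setd3, which methylates actin, and Prmt3, which methylates a ribosomal protein. By role they comprise 2 catalytic subunits of PRC2, 4 H3K9, 8 H3K4 or MLL family and 6 H3K36, H3K79 or H4K20 methyltransferases, 4 other SET domain proteins, 5 SMYD proteins, 9 arginine methyltransferases and the demethylases, 4 of the LSD1 and KDM2 type, 6 of the KDM3 and KDM4 families and 7 of the KDM5, KDM6 and KDM8 families.

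The embryoids were aggregates of embryonic stem (ES) cells, derived from Lifeact-RFPRuby mice, and XTE cells, reprogrammed from Gata6-H2B:venus ES cells. Per the labels 10000 ES cells were seeded with 50000 to 80000 XTE cells, cultured in aggregation wells over 48 h and in cell-repellent plates over a further 48 h. The blastocysts were whole embryos of B6C3F1 mice. Each of these was 1 library made from 6000 cells; how many embryoids or embryos were pooled is not given in the labels. The design text names a description of the epiblast, primitive endoderm and trophectoderm of the blastocyst and their comparison with embryoid cells as the aim.

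Histone methylation marks chromatin by the residue that carries it. Methylation of lysine 4 of histone H3 (H3K4), laid down by COMPASS-type complexes around the Kmt2 and Setd1 enzymes, marks active promoters and enhancers, and the Kdm5 and Kdm1 enzymes remove it. Methylation of H3K27 by polycomb repressive complex 2 (PRC2), with Ezh1 or Ezh2 as its catalytic subunit, and of H3K9 by the Suv39h and Ehmt enzymes, accompanies silencing. These marks are taken off by Kdm6 enzymes and by Kdm3 and Kdm4 enzymes. In the early mouse embryo such enzymes are known for their part in keeping pluripotency and in setting the inner cell mass and the trophectoderm apart.

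The cell groups differed widely in Smyd1, found mainly in trophectoderm-like cells, and in Setd7, high in the embryoid library. They also did in the demethylases Kdm5b and Kdm3a, both high in epiblast-like cells. Promoter sequences are shown for these 4 genes. Each runs 5′ to 3′ over 250 bases before and 50 bases from a gene's start, as RefSeq gives it for GRCm38.p6, with CpG dinucleotides in capitals.
Smyd1, chr6:71262232-71262531, minus strand: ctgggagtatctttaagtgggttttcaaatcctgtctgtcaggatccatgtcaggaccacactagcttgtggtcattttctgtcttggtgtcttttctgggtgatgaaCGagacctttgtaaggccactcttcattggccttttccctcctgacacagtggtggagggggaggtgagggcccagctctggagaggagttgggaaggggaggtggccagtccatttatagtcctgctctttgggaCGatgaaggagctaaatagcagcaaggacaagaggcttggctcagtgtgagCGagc
Setd7, chr3:51560774-51561073, minus strand: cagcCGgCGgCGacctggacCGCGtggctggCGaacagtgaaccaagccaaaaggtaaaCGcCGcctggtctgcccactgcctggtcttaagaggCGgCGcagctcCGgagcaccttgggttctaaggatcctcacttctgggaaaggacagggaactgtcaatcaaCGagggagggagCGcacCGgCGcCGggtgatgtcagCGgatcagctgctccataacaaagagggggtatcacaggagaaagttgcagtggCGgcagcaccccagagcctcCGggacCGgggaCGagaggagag
Kdm5b, chr1:134559928-134560227, plus strand: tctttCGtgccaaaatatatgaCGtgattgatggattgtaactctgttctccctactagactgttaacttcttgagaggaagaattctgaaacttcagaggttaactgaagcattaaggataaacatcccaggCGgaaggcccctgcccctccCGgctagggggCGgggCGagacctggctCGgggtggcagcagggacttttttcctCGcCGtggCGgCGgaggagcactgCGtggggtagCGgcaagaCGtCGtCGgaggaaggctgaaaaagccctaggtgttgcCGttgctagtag
Kdm3a, the first of 3 start sites, chr6:71632868-71633167, minus strand: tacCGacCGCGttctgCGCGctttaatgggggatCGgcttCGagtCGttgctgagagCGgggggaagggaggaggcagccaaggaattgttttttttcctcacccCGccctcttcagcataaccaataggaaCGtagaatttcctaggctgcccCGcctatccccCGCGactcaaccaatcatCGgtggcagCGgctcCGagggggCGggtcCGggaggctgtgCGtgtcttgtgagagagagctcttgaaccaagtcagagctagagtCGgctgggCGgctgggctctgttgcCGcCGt
The Smyd1 window held 3 CpG dinucleotides, the Setd7 window 21, the Kdm5b window 17 and the Kdm3a window 24, while the other Kdm3a windows held 40 and 0. The 54 RefSeq windows found for 42 of the 55 genes had a median of 27.5 CpG dinucleotides, against 7 over all 32851 windows of the table. The Smyd1 window shown is thus CpG-poor within a set whose windows are mostly CpG-rich. The GENCODE M21 annotation places the 5′ end of Smyd1 upstream of this window, at chr6:71322233. Which start trophectoderm-like cells use was not determined. The letters ACGTG, the core bound by hypoxia-inducible factors, which also lie inside the E-box CACGTG, were searched on both strands. They occurred in 14 of the 54 windows (25.9%) and in 19.6% of all windows, and 1 of them lies in the Kdm5b window shown.

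Clusters were named from marker genes, and a name ending in -like says no more than that. Embryoid cells were 4692 primitive endoderm-like (PrE-like) and 110 epiblast-like (EPI-like), with 434 fibroblast or extraembryonic mesoderm-like (FIB-like) and 92 unnamed cells; none was trophectoderm-like (TE-like). Blastocyst cells were 375 TE-like, 447 PrE-like and 257 EPI-like. The summed UMIs (unique molecular identifiers, each standing for 1 captured RNA) of these 5 main profiles ran from 745799 in embryoid EPI-like cells to 25731054 in embryoid PrE-like cells. Median UMIs per cell were 4843 and 6400.5 in embryoid PrE-like and EPI-like cells, against 8610, 9410 and 9861 in blastocyst TE-like, PrE-like and EPI-like cells. The mitochondrial share of UMIs was 6.56% and 5.21% in these embryoid classes, against 12.0%, 9.53% and 10.1% in the blastocyst classes. The trophectoderm markers summed to 1151 CPM (counts per 1000000 UMIs of a profile) in embryoid PrE-like cells, against 10184 CPM in blastocyst TE-like and 305 CPM in blastocyst PrE-like cells. The libraries share 9 cell barcodes. With 1 library per group nothing could be tested: intervals, exact and at 95%, cover counting error only, and a difference between embryoid and blastocyst cannot be told apart from a difference between libraries.

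Levels are CPM of summed UMIs and are not divided by gene length, so they are compared between profiles of a gene and not between genes. Enzyme genes together took 0.365% of UMIs in embryoid PrE-like and 0.387% in embryoid EPI-like cells, against 0.259% in blastocyst TE-like, 0.350% in blastocyst PrE-like and 0.460% in blastocyst EPI-like cells. Of the 55 genes, 51 reached a mean of 5 CPM over the 5 profiles and entered the contrasts, as did 10175 genes in all. Those that did not were Kdm4d, Kdm5d, Kdm8 and Prmt8. Smyd1 passed through its blastocyst TE-like level alone, and Prmt2 through its embryoid PrE-like level alone: over the other profiles they averaged 0.314 and 2.91 CPM. That these were called there follows from the filter, and they support nothing in the counts below. A member is counted as higher or lower where the log2 ratio of CPM + 1 reached 1 in size, a 2-fold difference.

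**Figure D1:**
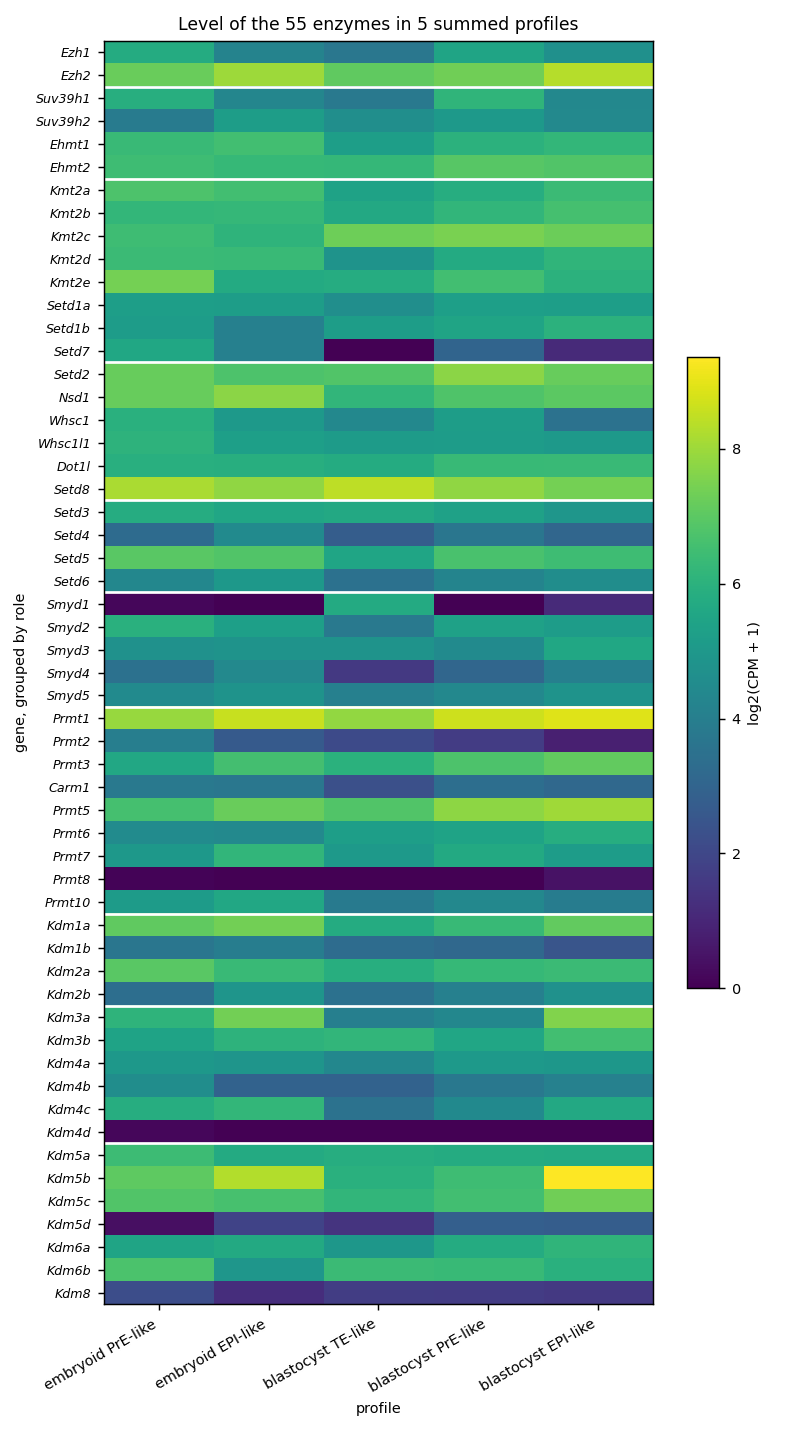
Level of each of the 55 enzyme genes (rows, grouped by role with white lines between groups) as log2(CPM + 1) in the 5 summed profiles (columns). Kdm5b and Kdm3a are brightest in the EPI-like columns, and Smyd1 stands out only in the blastocyst TE-like column.

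Wide lineage differences lay among the demethylases of H3K9 and H3K4. Kdm3a, which removes mono- and dimethyl groups from H3K9, stood at 67.5 CPM in embryoid PrE-like and 166 CPM in embryoid EPI-like cells, against 15.6 CPM in blastocyst TE-like, 19.2 CPM in blastocyst PrE-like and 194 CPM in blastocyst EPI-like cells. Both EPI-like profiles were high, the blastocyst TE-like and PrE-like profiles were low, and embryoid PrE-like cells lay between them. On the log2 scale TE-like cells were at -3.55 (-4.06 to -3.23) and PrE-like cells at -3.27 (-3.70 to -2.99) relative to EPI-like cells of the blastocyst. Here and below a log2 ratio is of CPM + 1. The interval in brackets is that of the plain ratio of counts with nothing added, and a ratio of very few UMIs may therefore fall beyond its own interval.

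Kdm5b, which removes trimethyl groups from H3K4 and is known for its role in ES cell self-renewal, was at 131 CPM in embryoid PrE-like and 311 CPM in embryoid EPI-like cells, against 60.3 CPM in blastocyst TE-like, 86.1 CPM in blastocyst PrE-like and 658 CPM in blastocyst EPI-like cells. Its order over the profiles was that of Kdm3a, with blastocyst EPI-like cells highest and blastocyst TE-like cells lowest, and no neighbours in that order had overlapping intervals. The log2 ratio was -3.43 (-3.66 to -3.24) for TE-like over EPI-like and -2.92 (-3.10 to -2.77) for PrE-like over EPI-like cells of the blastocyst. Its relatives were less spread. Kdm5a ran from 52.3 CPM in embryoid EPI-like to 85.7 CPM in embryoid PrE-like cells, and the X-linked Kdm5c from 71.2 CPM in blastocyst TE-like to 161 CPM in blastocyst EPI-like cells.

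Kdm4c, which acts on di- and trimethyl H3K9, was at 55.5 CPM in embryoid PrE-like and 72.4 CPM in embryoid EPI-like cells, against 10.6 CPM in blastocyst TE-like, 20.9 CPM in blastocyst PrE-like and 49.1 CPM in blastocyst EPI-like cells. Blastocyst TE-like and PrE-like cells were again low, but here embryoid PrE-like cells stood with the EPI-like cells. The intervals of embryoid PrE-like (52.7 to 58.5 CPM), embryoid EPI-like (54.4 to 94.5 CPM) and blastocyst EPI-like cells (41.0 to 58.3 CPM) overlapped. Kdm4a ran from 19.0 CPM in blastocyst TE-like to 31.5 CPM in blastocyst PrE-like cells, and Kdm3b from 41.9 CPM in embryoid PrE-like to 92.4 CPM in blastocyst EPI-like cells.

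The share of cells with a UMI showed the same contrast per cell. After thinning each cell to 2000 UMIs, Kdm5b was seen in 23.3% of embryoid PrE-like and 47.2% of embryoid EPI-like cells, against 9.09% of blastocyst TE-like, 16.8% of PrE-like and 75.7% of EPI-like cells. Without thinning the shares were 45.8% and 79.1% in the embryoid classes, against 40.8%, 48.3% and 95.7% in the blastocyst classes. Kdm3a was seen in 13.5% and 22.6% of thinned embryoid PrE-like and EPI-like cells, against 3.31%, 5.11% and 33.6% of blastocyst TE-like, PrE-like and EPI-like cells. The high EPI-like levels of both genes were therefore spread over many cells: the interval of the Kdm5b share was 69.9 to 80.9% in blastocyst EPI-like and 6.34 to 12.5% in blastocyst TE-like cells. Thinning left out 278 and 4 of the embryoid PrE-like and EPI-like cells, and 12, 36 and 10 of the blastocyst TE-like, PrE-like and EPI-like cells. No class is known to lack these genes, so the share that free RNA gives was not measured for them. The endoderm markers summed to 821 CPM in embryoid EPI-like cells, against 8318 CPM in embryoid PrE-like and 130 CPM in blastocyst EPI-like cells. Whether free RNA or doublets gave them, and the part of either in the embryoid EPI-like enzyme levels, was not tested.

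**Figure D2:**
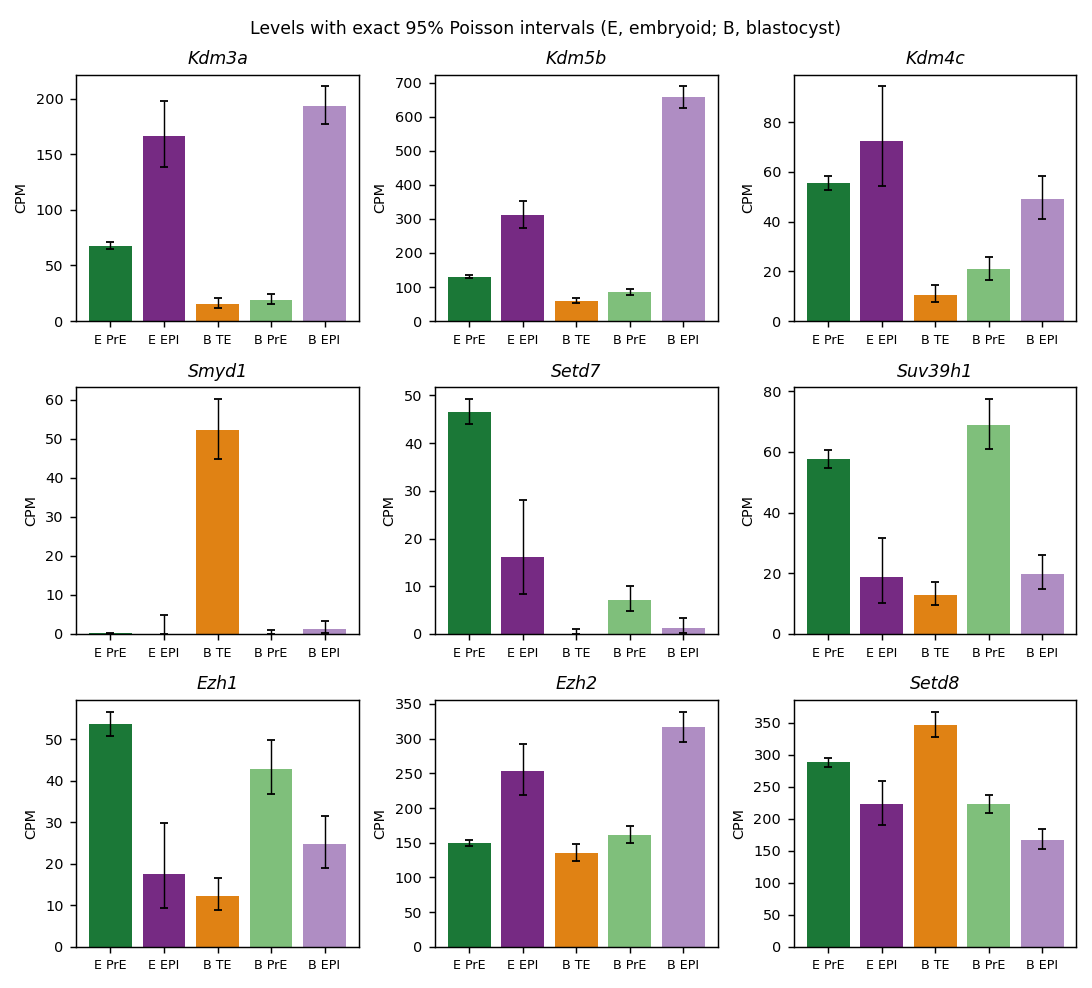
Level in CPM of 9 enzyme genes in the 5 profiles (E PrE and E EPI, embryoid; B TE, B PrE and B EPI, blastocyst), with exact 95% Poisson intervals as error bars and each axis starting at 0. Kdm5b stood at 658 CPM in blastocyst EPI-like cells and Smyd1 at 52.2 CPM in blastocyst TE-like cells, and Setd7 was highest in embryoid PrE-like cells at 46.5 CPM.

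Among the other demethylases, Kdm1a (LSD1), which removes mono- and dimethyl groups from H3K4, stood at 133 and 165 CPM in embryoid PrE-like and EPI-like cells, against 53.0, 77.9 and 137 CPM in blastocyst TE-like, PrE-like and EPI-like cells. TE-like cells were lowest, at a log2 ratio of -1.35 (-1.63 to -1.11) to EPI-like cells. Its relative Kdm1b ran from 4.57 CPM in blastocyst EPI-like to 14.7 CPM (11 UMIs) in embryoid EPI-like cells. Kdm2b, which brings polycomb complexes to CpG islands, was at 9.40 and 28.2 CPM in embryoid PrE-like and EPI-like cells, against 10.3, 16 and 25.5 CPM in blastocyst TE-like, PrE-like and EPI-like cells, so that both EPI-like profiles were above the other profiles of their library. Kdm2a, which binds CpG islands too, ran from 57.8 CPM in blastocyst TE-like to 125 CPM in embryoid PrE-like cells. The H3K27 demethylase Kdm6b was at 104 and 29.5 CPM in embryoid PrE-like and EPI-like cells, against 82.3, 77.4 and 60.5 CPM in blastocyst TE-like, PrE-like and EPI-like cells, with embryoid EPI-like cells lowest, and the X-linked Kdm6a ran from 30.1 CPM in blastocyst TE-like to 68.5 CPM in blastocyst EPI-like cells.

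Smyd1, a SET and MYND domain methyltransferase best known from heart and skeletal muscle, was the member most restricted to a single class. It had 187 UMIs, or 52.2 CPM (45.0 to 60.2), in blastocyst TE-like cells. It had 3 UMIs (0.117 CPM) in embryoid PrE-like, 0 in embryoid EPI-like, where 3 UMIs would be 4.02 CPM, 0 in blastocyst PrE-like and 3 (1.14 CPM) in blastocyst EPI-like cells. TE-like cells were thus at least 71.7-fold higher than blastocyst PrE-like cells, with 3 UMIs over the whole PrE-like profile as the floor. Relative to EPI-like cells the log2 ratio was 4.63 (3.95 to 7.81). Embryoid PrE-like cells had 0.00223 (95% interval 0.000457 to 0.00663) times the blastocyst TE-like level. In thinned cells Smyd1 was seen in 8.54% (5.88 to 11.9) of TE-like cells, where 0 of 411 blastocyst PrE-like cells had a UMI, which at that depth allows a share of cells with a UMI of up to 0.730%. The gene (chr6:71213940-71322233, minus strand, GENCODE M21 on the mm10 build) has exons that overlap no other gene.

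Of the other SMYD genes, Smyd2, Smyd4 and Smyd5 had their lowest level in blastocyst TE-like cells, where Smyd1 was highest. Smyd2, which methylates H3K36 and the tumour suppressor p53, was at 61.3 and 37.5 CPM in embryoid PrE-like and EPI-like cells, against 12.8, 40.0 and 35.0 CPM in blastocyst TE-like, PrE-like and EPI-like cells, and TE-like cells were lowest. Smyd4 was lowest there too, at 1.95 CPM (7 UMIs) against 15.6 CPM in EPI-like cells of the blastocyst, a log2 ratio of -2.49 (-4.40 to -1.83). Smyd3 ran from 21.6 CPM in blastocyst PrE-like to 46.4 CPM in blastocyst EPI-like cells, and Smyd5 from 15.9 to 27 CPM between blastocyst TE-like and EPI-like cells.

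Among writers of H3K9 and H3K27 methylation, Suv39h1 and Ezh1 were higher in the PrE-like profiles than in the TE-like and EPI-like ones. Suv39h1, which trimethylates H3K9 at pericentric heterochromatin and lies on the X chromosome, stood at 57.7 CPM in embryoid PrE-like and 18.8 CPM in embryoid EPI-like cells, against 12.8 CPM in blastocyst TE-like, 68.9 CPM in blastocyst PrE-like and 19.8 CPM in blastocyst EPI-like cells. The PrE-like profiles of both libraries were high and the other 3 profiles low, with no overlap of the intervals between these sets. Its log2 ratio was 1.75 (1.37 to 2.26) for PrE-like over EPI-like and -2.34 (-2.91 to -1.97) for TE-like over PrE-like cells of the blastocyst. Its paralogue Suv39h2 did not follow it, with 14 and 36.2 CPM in embryoid PrE-like and EPI-like cells, against 23.7, 32.3 and 20.2 CPM in blastocyst TE-like, PrE-like and EPI-like cells. The G9a and GLP enzymes, which dimethylate H3K9 as a pair, varied less: Ehmt2 ran from 74.2 CPM in blastocyst TE-like to 122 CPM in blastocyst PrE-like cells, and Ehmt1 from 37.4 CPM in blastocyst TE-like to 92.5 CPM in embryoid EPI-like cells.

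The catalytic subunits of PRC2 differed in where they were high. Ezh1, the form common in cells that have left the cycle, was at 53.6 CPM in embryoid PrE-like and 17.4 CPM in embryoid EPI-like cells, against 12.3 CPM in blastocyst TE-like, 42.9 CPM in blastocyst PrE-like and 24.7 CPM in blastocyst EPI-like cells. Ezh2, the form of dividing cells, was at 149.5 CPM in embryoid PrE-like and 253 CPM in embryoid EPI-like cells, against 135 CPM in blastocyst TE-like, 162 CPM in blastocyst PrE-like and 316 CPM in blastocyst EPI-like cells. Ezh1 was thus highest in the PrE-like profiles of both libraries and Ezh2 in the EPI-like profiles of both. For PrE-like over EPI-like cells the log2 ratios were 1.57 for Ezh1 and -0.76 for Ezh2 in the embryoid, and 0.77 and -0.96 in the blastocyst. The G2/M gene list summed to 3109 CPM in embryoid PrE-like and 4670 CPM in embryoid EPI-like cells, against 1816, 3817 and 3289 CPM in blastocyst TE-like, PrE-like and EPI-like cells. The S phase list summed to 1301 and 2648 CPM in the embryoid profiles, against 1476, 2055 and 3049 CPM in those of the blastocyst. Their part in the Ezh1 and Ezh2 levels was not tested.

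Of the H3K4 methyltransferases, Setd7, which adds a single methyl group to H3K4 and to many other proteins, had the widest range. It stood at 46.5 CPM (43.9 to 49.2) in embryoid PrE-like and 16.1 CPM (8.31 to 28.1, 12 UMIs) in embryoid EPI-like cells. In the blastocyst it was at 7.03 CPM (4.71 to 10.1) in PrE-like cells and 1.14 CPM (3 UMIs) in EPI-like cells, and it had 0 UMIs in TE-like cells, where the floor of 3 UMIs is 0.837 CPM. It was thus higher in the embryoid than in the blastocyst in both classes that the libraries share. In thinned cells it was seen in 9.52% (8.67 to 10.4) of embryoid PrE-like cells, against 1.70% (0.687 to 3.48) of blastocyst PrE-like cells and 0 of 363 TE-like cells, which at that depth allows a share of cells with a UMI of up to 0.826%. Exons of Setd7 (gene at chr3:51515319-51560879, minus strand) overlap those of 5031434O11Rik on the opposite strand. Whether the counting used strand is not given in the sources used here, so reads of the 2 genes cannot be told apart. The same holds for 21 members in all, among them Suv39h1, Suv39h2, Ezh2, Kmt2c, Kmt2e, Kdm1b, Kdm2b, Kdm5a, Kdm6b, Whsc1 and Carm1, while Kdm3a, Kdm4c, Kdm5b, Ezh1, Setd8 and Smyd1 have no such overlap.

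The large H3K4 enzymes showed smaller steps. Kmt2c, which marks enhancers, was at 85.8 and 67.0 CPM in embryoid PrE-like and EPI-like cells, against 157, 176 and 153 CPM in blastocyst TE-like, PrE-like and EPI-like cells. As summed profiles, both of the embryoid were lower than any of the blastocyst. By cluster the ranges of Kmt2c overlapped: 57.2 to 105 CPM in embryoid PrE-like, 58.4 to 212 CPM in blastocyst TE-like and 96.9 to 226 CPM in blastocyst PrE-like cells. Its paralogue Kmt2d was at 82.9 and 80.5 CPM in embryoid PrE-like and EPI-like cells, against 26.8, 51.9 and 69.6 CPM in blastocyst TE-like, PrE-like and EPI-like cells, lowest in TE-like cells. Kmt2a ran from 40.7 CPM in blastocyst TE-like to 107 CPM in embryoid PrE-like cells and Kmt2b from 49.7 CPM in blastocyst TE-like to 95.9 CPM in blastocyst EPI-like cells. Setd1a, a main writer of promoter H3K4 trimethylation, ran from 23.4 CPM in blastocyst TE-like to 38.1 CPM in blastocyst PrE-like cells, and its relative Setd1b from 16.1 CPM (12 UMIs) in embryoid EPI-like to 63.2 CPM in blastocyst EPI-like cells. Kmt2e, a relative with no established enzyme activity, was at 171 CPM in embryoid PrE-like cells and between 52.3 CPM in embryoid EPI-like and 90.2 CPM in blastocyst PrE-like cells elsewhere.

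Among writers of H3K36, H3K79 and H4K20 methylation, Setd8, the only enzyme known to monomethylate H4K20, was the one gene besides Smyd1 and Prmt2 at least 2-fold higher in TE-like than in EPI-like cells. It stood at 288 and 223 CPM in embryoid PrE-like and EPI-like cells, against 347, 223 and 167 CPM in blastocyst TE-like, PrE-like and EPI-like cells, a log2 ratio of 1.05 (0.89 to 1.21) for TE-like over EPI-like cells. Suv420h1 and Suv420h2, which act after it on H4K20 and lie outside the name rule, were at 39.6 and 39.9 CPM in TE-like cells, against 79.1 and 56.7 CPM in EPI-like cells of the blastocyst. Whsc1, a writer of dimethyl H3K36, was at 60.2 and 32.2 CPM in embryoid PrE-like and EPI-like cells, against 19.8, 35.7 and 10.7 CPM in blastocyst TE-like, PrE-like and EPI-like cells, lowest in blastocyst EPI-like cells; its exons overlap those of Nelfa. Nsd1, of the same family, ran from 70.3 CPM in blastocyst TE-like to 215 CPM in embryoid EPI-like cells, and Whsc1l1 from 32.3 CPM in blastocyst EPI-like to 66.1 CPM in embryoid PrE-like cells. Setd2, which trimethylates H3K36 in transcribed genes, ran from 106 CPM in embryoid EPI-like to 211 CPM in blastocyst PrE-like cells, and the H3K79 enzyme Dot1l from 53.6 CPM in blastocyst TE-like to 80.3 CPM in blastocyst EPI-like cells.

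Of the 8 arginine methyltransferases that entered the contrasts, 3 were at least 2-fold lower in TE-like relative to EPI-like cells, beside 24.2% of all genes. The 1 at least 2-fold higher, beside 13.8% of all genes, was Prmt2, with 12 against 2 UMIs. Prmt2 entered only through its embryoid PrE-like level, so nothing is drawn from that count. Prmt1, which makes most asymmetric dimethylarginine, was at 239 and 381 CPM in embryoid PrE-like and EPI-like cells, against 231, 399 and 479 CPM in blastocyst TE-like, PrE-like and EPI-like cells. Prmt5, the main source of symmetric dimethylarginine, was at 97.0 and 149 CPM in embryoid PrE-like and EPI-like cells, against 111, 218 and 259 CPM in blastocyst TE-like, PrE-like and EPI-like cells. For both genes blastocyst EPI-like cells were highest, and embryoid PrE-like cells were below blastocyst PrE-like cells. Prmt2 was low throughout, between 0.761 CPM (2 UMIs) in blastocyst EPI-like and 15.0 CPM in embryoid PrE-like cells. Carm1, which methylates H3 and many coactivators, ran from 3.91 CPM (14 UMIs) in blastocyst TE-like to 12.7 CPM in embryoid PrE-like cells. Prmt6, which places asymmetric dimethylarginine on H3, was at 22.0 and 20.1 CPM in embryoid PrE-like and EPI-like cells, against 37.4, 41.7 and 56.7 CPM in blastocyst TE-like, PrE-like and EPI-like cells. Prmt7, which makes monomethylarginine, was at 30.7 and 71.1 CPM in embryoid PrE-like and EPI-like cells, against 31.5, 50.4 and 35.0 CPM in blastocyst TE-like, PrE-like and EPI-like cells. Prmt10, known to methylate a splicing factor, was at 34.3 and 48.3 CPM in embryoid PrE-like and EPI-like cells, against 13.1, 19.9 and 14.5 CPM in blastocyst TE-like, PrE-like and EPI-like cells, and Prmt3 at 48.5 and 93.9 CPM in embryoid PrE-like and EPI-like cells, against 62.8, 106 and 137 CPM in blastocyst TE-like, PrE-like and EPI-like cells. Prmt3 and Prmt6 were thus lower in both embryoid profiles than in the blastocyst profile of the same class, and Prmt10 was higher in both.

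Among the remaining SET domain proteins, Setd5, an essential gene of mouse development, was at 125 and 111 CPM in embryoid PrE-like and EPI-like cells, against 44.6, 101 and 87.1 CPM in blastocyst TE-like, PrE-like and EPI-like cells, with blastocyst TE-like cells lowest. Setd3 ran from 28.9 CPM in blastocyst EPI-like to 54.6 CPM in embryoid PrE-like cells and Setd6, which methylates the NF-kappaB subunit RelA, from 10.3 CPM in blastocyst TE-like to 30.8 CPM in embryoid EPI-like cells. Setd4 was low, from 5.86 CPM in blastocyst TE-like to 21.5 CPM (16 UMIs) in embryoid EPI-like cells. Kdm4b, which like Kdm4c acts on H3K9, was at 22.9 and 6.70 CPM in embryoid PrE-like and EPI-like cells, against 6.70, 12.4 and 16.4 CPM in blastocyst TE-like, PrE-like and EPI-like cells. At the low end Kdm8 reached 3.61 CPM at most, and Kdm4d and Prmt8, known from testis and brain, had at most 3 UMIs in any profile.

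Counted over the set, 3 of 51 members (5.88%) were higher by 2-fold or more in TE-like relative to EPI-like cells and 17 (33.3%) lower, where 13.8% of all genes were higher and 24.2% lower. Of the 3, Smyd1 entered only through its TE-like level and Prmt2 only through its embryoid PrE-like level. Nothing is therefore drawn from the count of higher members. The median log2 ratio was -0.74 for members and -0.31 for all genes. Of the 17, Setd7 had 0 and 3 UMIs, so that its ratio rests on the added CPM. By role, 3 of the 5 H3K9 demethylases were lower, against 0 of the 4 H3K9 methyltransferases. The lower members named for their size were Kdm3a, Kdm5b, Smyd4, Kdm4c (-2.11, -2.77 to -1.68), Smyd2 (-1.38, -1.99 to -0.92), Kdm1a, Kmt2d (-1.35, -1.75 to -1.01) and Kdm2b (-1.23, -1.92 to -0.70). Scaling by the median of ratios takes out a shift of -0.35 between TE-like and EPI-like cells. It left 6 members higher and 8 lower, beside 19.1% and 17.0% of all genes, with a members' median of -0.40. Every named ratio of this contrast is at least 1 in size, so a shift of -0.35 could not change a sign.

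In PrE-like relative to EPI-like cells of the blastocyst 3 of 51 members were higher by 2-fold or more (14.6% of all genes) and 5 lower (10.3% of all genes), with medians of -0.11 for members and 0.05 for all genes. The higher members were Suv39h1, Setd7 (1.91, 0.93 to 4.98) and Whsc1 (1.65, 1.15 to 2.38). The lower ones were Kdm3a, Kdm5b, Kdm4c (-1.2, -1.65 to -0.83), Smyd3 (-1.07, -1.52 to -0.70) and, with 0 and 3 UMIs, Smyd1. Between TE-like and PrE-like cells 1 member, Smyd1, was higher by 2-fold or more in TE-like cells (9.97% of all genes) and 7 were lower (23.1% of all genes). Smyd1 entered only through its TE-like level, so nothing is drawn from the count of 1. Named among the 7 lower were Suv39h1, Ezh1 (-1.73, -2.32 to -1.32), Smyd2 (-1.57, -2.14 to -1.16) and Setd5 (-1.17, -1.46 to -0.92). The members' median was -0.59 and that of all genes -0.39. Median-of-ratios scaling, with a shift of -0.39, gave 2 higher and 5 lower, beside 14.6% and 15.1% of all genes. The 7 lower became 11 in cells with at most 10% mitochondrial UMIs and 17 in cells at or under the median cell cycle share, and 4 with a pseudocount of 10 CPM or a mean of 20 CPM or more. The 3 higher of PrE-like over EPI-like became 5 and 8 in the same selections of cells. The cell cycle selection kept 228 of 375 TE-like, 108 of 447 PrE-like and 35 of 257 EPI-like cells. The share of all genes is not given for these alternatives, so their counts do not show a change particular to the members. These contrasts share profiles, so their counts are not independent.

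Ranking the lineages for each gene put EPI-like cells highest for 26 of the 51 members (51%), against 38.1% of all genes tested. TE-like cells were lowest for 38 members (74.5%), against 54.4% of all genes. The 7 members highest in TE-like cells were Kdm1b, Kdm5a, Kdm6b, Prmt2, Setd3, Setd8 and Smyd1. Of these, Smyd1 entered only through its TE-like level. With median-of-ratios scaling TE-like cells were lowest for 29 of 51 members, against 38.1% of all genes, and EPI-like cells highest for 27, against 32.9%. TE-like cells also had the lowest G2/M sum and the fewest genes per cell of the lineages, with a median of 2907 genes in TE-like, 3512 in PrE-like and 3548 in EPI-like cells; the part of these in the order was not tested.

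**Figure D3:**
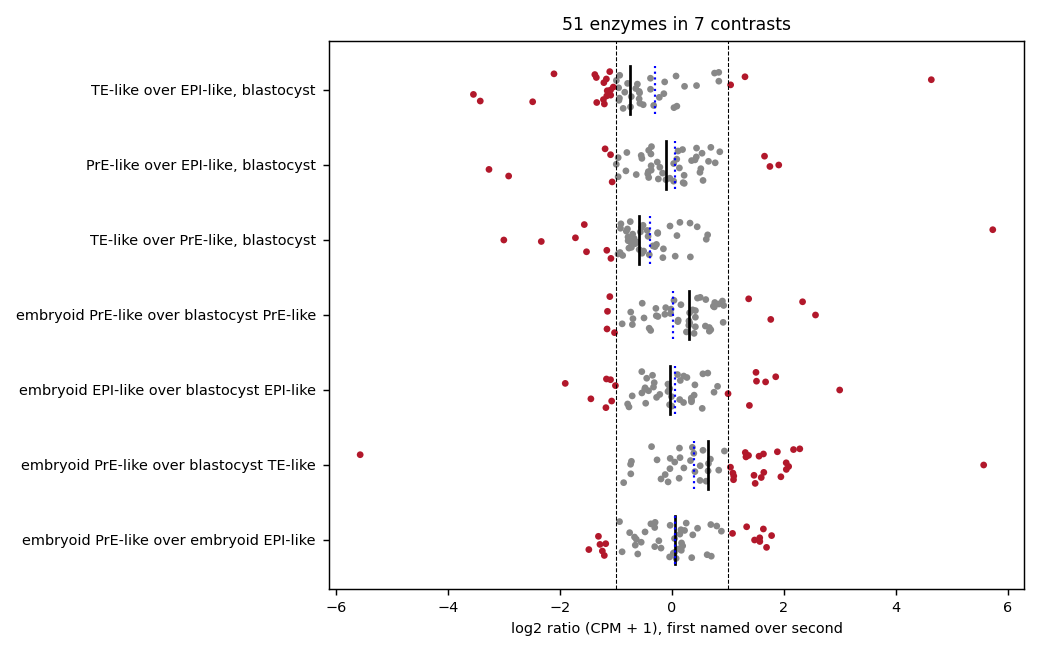
Log2 ratio of CPM + 1 of the 51 members (points; red, at least 2-fold apart) in 7 contrasts, with the members' median as a solid bar and the median of all 10175 genes as a dotted bar. In the contrast of TE-like over EPI-like cells the members' median lies at -0.74 and that of all genes at -0.31.

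The design's comparison of embryoid with blastocyst cells was first made within the PrE-like class. Of 51 members 4 were at least 2-fold higher in embryoid PrE-like cells and 4 at least 2-fold lower. Each count is 7.84% of the members, where 16% of all genes were higher and 12.6% lower. The median was 0.30 for members and 0.02 for all genes. The higher ones were Setd7 (2.56, 2.20 to 3.31), Prmt2 (2.33, 1.84 to 3.92; 387 against 9 UMIs, and in the contrasts only for that level), Kdm3a (1.76, 1.49 to 2.16) and Kdm4c (1.37, 1.10 to 1.74). The lower ones were Prmt5 (-1.16, -1.28 to -1.06), Suv39h2 (-1.15, -1.5 to -0.91), Prmt3 (-1.11, -1.29 to -0.97) and Kmt2c (-1.03, -1.16 to -0.91). By role, the 5 H3K9 demethylases had a median of 0.84 with 2 higher and 0 lower, and the 8 arginine methyltransferases a median of -0.72 with 1 higher and 2 lower.

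Kdm3a is known as a gene induced by hypoxia-inducible factors. A list of 10 hypoxia genes, chosen after values had been seen, summed to 2896 CPM in embryoid PrE-like and 2145 CPM in embryoid EPI-like cells, against 1255, 736 and 694 CPM in blastocyst TE-like, PrE-like and EPI-like cells. Single genes of the list differed in their order. In blastocyst EPI-like and PrE-like cells Ldha was at 322 and 415 CPM and Vegfa at 19.8 and 67.4 CPM. Pdk1 was at 55.9 and 9.46 CPM and Slc2a1 at 101 and 64.5 CPM in the same cells. The part of hypoxia in the Kdm3a level of any profile was not tested.

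Within the EPI-like class 7 members were at least 2-fold higher in the embryoid (15.5% of all genes) and 7 at least 2-fold lower (10% of all genes), on 110 embryoid cells. The medians were -0.04 for members and 0.06 for all genes. Taking out a scaling shift of 0.12 gave 6 higher and 7 lower, beside 13.3% and 12.0% of all genes. Those named as higher were Setd7 (3.00, 1.93 to 6.28), Prmt10 (1.67, 1.04 to 2.44), Whsc1 (1.51, 0.75 to 2.43), Kdm1b (1.5, 0.37 to 3.00), Setd4 (1.38, 0.45 to 2.52) and Prmt7 (1.00, 0.51 to 1.52). Those named as lower were Setd1b (-1.91, -2.95 to -1.13), Prmt6 (-1.45, -2.37 to -0.73), Kmt2c (-1.18, -1.65 to -0.77), Kdm4b (-1.17, -2.98 to 0.05; 5 against 43 UMIs), Kdm5b (-1.08, -1.29 to -0.88) and Kdm6b (-1.01, -1.75 to -0.39). Smyd1, with 0 and 3 UMIs, is the remaining lower one and Prmt2, with 4 and 2 UMIs, the remaining higher one. Setd7 was past 2-fold higher, and Kmt2c past 2-fold lower, in the embryoid in both classes. When only cells at or under the median cell cycle share were kept, which left 10 embryoid EPI-like cells, Setd4 (-3.12), Prmt7 (-0.04) and Kdm6b (0.19) changed sign. Kdm3a was not past 2-fold within this class: embryoid EPI-like cells had 166 CPM against 194 CPM in blastocyst EPI-like cells, with overlapping intervals (138 to 198 and 177 to 211 CPM).

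Embryoid PrE-like cells, which were most of the cells kept from the embryoid library, were also set against the blastocyst TE-like cells. Here 21 of 51 members (41.2%) were at least 2-fold higher in embryoid cells, against 29.3% of all genes, and 1, Smyd1, was at least 2-fold lower, against 12.0% of all genes. Smyd1 entered only through its TE-like level, so nothing is drawn from the count of 1. Prmt2, among the 21, entered only through its embryoid PrE-like level. The median was 0.64 for members and 0.39 for all genes. With median-of-ratios scaling, which subtracts a shift of 0.42, 14 were higher and 5 lower, beside 20.0% and 18.5% of all genes. Setd7 was at least 55.6-fold higher. Kdm4c (2.28), Smyd2 (2.17), Suv39h1 (2.08), Kdm3a (2.04), Ezh1 (2.04), Smyd4 (1.95) and Prmt2 (1.88) followed on the log2 scale, and the lower bounds of their intervals lay between 1.35 and 1.92. The G2/M list had 8 of 15 genes at least 2-fold higher in embryoid PrE-like than in TE-like cells, and its part in these counts was not tested.

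Within the embryoid, PrE-like cells had 8 members at least 2-fold higher than EPI-like cells (18.7% of all genes) and 6 at least 2-fold lower (13.1% of all genes), with a median of 0.05 for members and for all genes. Higher were Kdm6b (1.78, 1.21 to 2.49), Kmt2e (1.69, 1.25 to 2.20), Kdm4b (1.63, 0.54 to 3.40), Suv39h1 (1.57, 0.87 to 2.49), Ezh1 (1.57, 0.84 to 2.53), Setd7 (1.48, 0.72 to 2.49), Prmt2 (1.33, 0.12 to 3.37) and Setd1b (1.08, 0.32 to 2.09). Prmt2 entered only through its embryoid PrE-like level. Lower were Kdm2b (-1.49, -2.23 to -0.86), Suv39h2 (-1.32, -1.94 to -0.75), Kdm3a (-1.29, -1.56 to -1.03), Kdm5b (-1.25, -1.44 to -1.05), Setd4 (-1.21, -2.03 to -0.47) and Prmt7 (-1.18, -1.61 to -0.78). Exons of Kdm6b overlap those of Kdm6bos, and exons of Kmt2e those of Srpk2, which limits both as for Setd7. When only cells at or under the median cell cycle share of UMIs were kept, 10 embryoid EPI-like cells remained and Setd1b (-0.09), Suv39h2 (3.24) and Setd4 (3.47) changed sign.

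The PrE-like over EPI-like contrast can be read in each library on its own cells. Of the 8 members past 2-fold in the blastocyst, 7 kept their sign in embryoid cells and 4 were past 2-fold there too. These 4 were Setd7 and Suv39h1, higher, and Kdm3a and Kdm5b, lower in PrE-like cells. The member that changed sign, Smyd1, had at most 3 UMIs in any of these profiles, so its sign rests on the floor. The same counts were not made over all genes, so they do not show whether members agree more than other genes. The size differed. Kdm3a was at -1.29 in the embryoid and -3.27 in the blastocyst, and Kdm5b at -1.25 and -2.92, with intervals that do not overlap for either gene. Suv39h1 was at 1.57 and 1.75, with overlapping intervals. Suv39h2 had opposite signs, -1.32 in the embryoid and 0.65 in the blastocyst. That the contrast differs between the libraries was not tested, since each has 1 library.

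**Figure D4:**
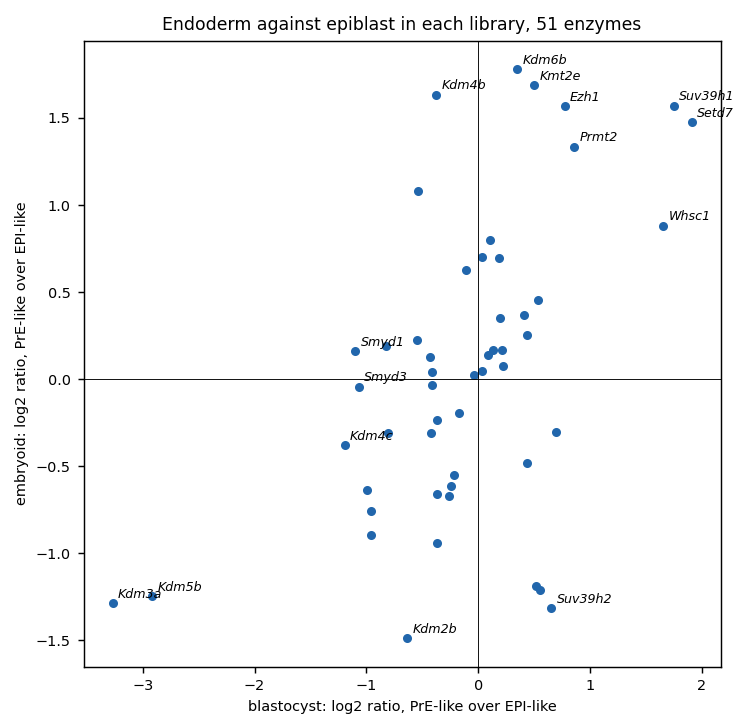
PrE-like over EPI-like log2 ratio of the 51 members in the embryoid (vertical axis) against the blastocyst (horizontal axis), with the wider ones named. Kdm3a and Kdm5b lie lower left at -1.29 and -1.25 in the embryoid, and Suv39h1 and Setd7 upper right at 1.57 and 1.48.

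Partners of these enzymes were read from lists of complex subunits. Of 12 COMPASS-type subunits 8 were lower and 0 higher by 2-fold or more in TE-like relative to EPI-like cells, where 24.2% of all genes were lower and 13.8% higher, and their median was -1.41 against -0.31 over all genes. The TE-like and EPI-like levels of Hcfc1 were 57.8 and 213 CPM, with Psip1 at 99.6 and 342 CPM, and Wdr82, a subunit of the Setd1 complexes, at 54.4 and 185 CPM. Under median-of-ratios scaling 7 of the 12 were lower, beside 17.0% of all genes. Of 11 H3K9 methylation partners and readers 1 was higher, Pphln1, and 7 were lower, with Uhrf1, which binds methylated H3K9 during DNA replication, at 55.2 and 323 CPM and Trim28, the corepressor of zinc finger proteins, at 275 and 1064 CPM; under that scaling 2 were lower. Of 8 CoREST and LSD1 partners 4 were lower, led by Rcor2 at 8.09 and 197 CPM, a log2 ratio of -4.45, next to -1.35 for Kdm1a itself. Of 8 PRC2 genes 2 were lower, of 6 DOT1L and elongation partners 3, of 6 PRMT5 partners 0 and of 8 methyl-lysine enzymes outside the name rule 2, and in none of these lists was a gene higher by that much; their medians were -0.45, -0.94, -0.42 and -0.56. The PRC2 genes and the enzymes outside the name rule were thus near the share of all genes. The S phase list, with 9 of 13 genes lower and a median of -1.39, moved the same way, and its part in these counts was not tested.

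In PrE-like over EPI-like cells of the blastocyst, Rcor2 stood at 35.4 and 197 CPM, and the PRC2 accessory protein Jarid2 at 197 and 608 CPM. Suz12, a core subunit that Ezh1 and Ezh2 both need, was at 139.7 and 332 CPM. Of 8 PRC2 genes 2 were lower and 0 higher, where 10.3% of all genes were lower and 14.6% higher, with a median of -0.55 against 0.05 for all genes. Between embryoid and blastocyst PrE-like cells the PRC2 genes parted: Rbbp7, an X-linked histone-binding subunit, was at 1299 CPM in the embryoid and 193 CPM in the blastocyst, while Jarid2 was at 42.5 and 197 CPM and Eed, the subunit that reads trimethyl H3K27, at 55.3 and 119 CPM. The PRMT5 partners Smn1 (131 and 368 CPM) and Wdr77 (171 and 329 CPM) stood lower in embryoid PrE-like cells, as Prmt5 did, though only Smn1 was past 2-fold. Of the other lists in that contrast, where 16% of all genes were higher and 12.6% lower, 0 of 12 COMPASS-type subunits were past 2-fold either way, and of the 8 methyl-lysine enzymes outside the name rule Phf2 and Ash1l were higher and none lower. Ash1l, an H3K36 methyltransferase, was at 95.7 and 43.2 CPM and Phf2, a demethylase relative, at 66.7 and 27.6 CPM.

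Levels were also read in the 9 PrE-like clusters of the embryoid, which were built without the members. For 33 of the 51 members (64.7%) the intervals of the highest and the lowest cluster did not overlap, against 62.4% of all genes. For 11 (21.6%) these clusters were at least 2-fold apart, against 39% of all genes, some of which were used to build the clusters. The median ratio of highest to lowest was 1.68 for members and 1.83 for all genes with no cluster at 0. As a set the members thus gave no sign of varying more than other genes, and single members are described. Setd7 ran from 18.4 CPM in cluster 2, led by Chac1 and Cubn, to 81.6 CPM in cluster 1, led by F3 and Ctgf. Kdm5b ran from 81.5 CPM in cluster 2 to 218 CPM in cluster 0, led by Sfrp5 and Frzb, so that its highest embryoid PrE-like cluster stayed below the 311 CPM of embryoid EPI-like cells. Suv39h1 was lowest in cluster 0 at 30.4 CPM and highest at 86.6 CPM in cluster 9, which is led by Nepn and Rbp4. Kmt2e ran from 118 CPM in cluster 2 to 249.8 CPM in cluster 0.

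Ezh2 was lowest in clusters 5 and 0, at 89.0 and 93.4 CPM, whose G2/M sums of 492 and 549 CPM were the lowest. In clusters 6, 3 and 2, with G2/M sums of 5967, 5348 and 5232 CPM, it was at 190.4, 194 and 181 CPM. Over the 9 clusters its Spearman correlation with the summed S and G2/M lists was 0.87, that of Suv39h2 0.78 and that of Whsc1 0.77. The lowest values were -0.83 for Kmt2c, -0.78 for Nsd1 and -0.75 for Kdm6b. Nsd1 ran only from 130 to 168 CPM, with overlapping intervals of its lowest and highest cluster. The highest and lowest correlations were picked by size among the members, and those of all genes were not computed. The correlations are descriptions over clusters of 1 library, which also differ in depth (median UMIs per cell of 2313 to 6664).

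**Figure D5:**
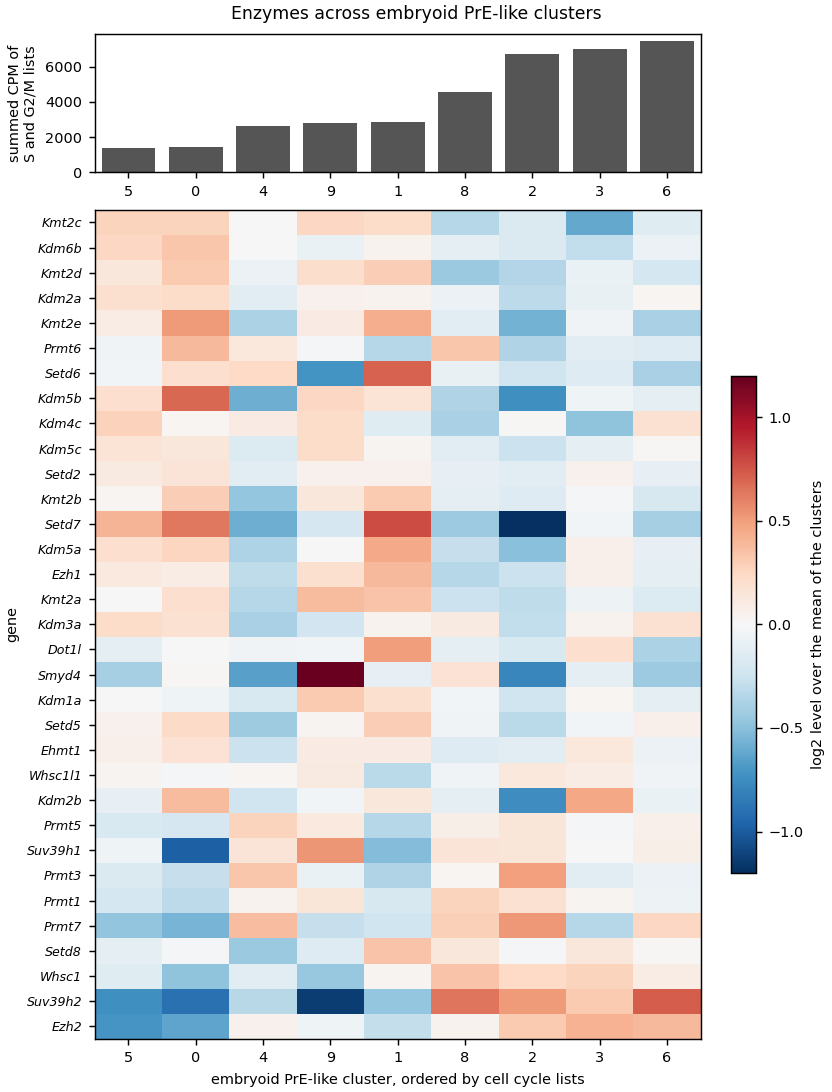
Lower panel, log2 level over the mean of the clusters for the 33 members whose highest and lowest embryoid PrE-like clusters have intervals apart; upper panel, summed CPM of the S and G2/M lists, by which the 9 clusters are ordered. Ezh2 was at 89.0 CPM in cluster 5, at the left, and 190.4 CPM in cluster 6, at the right.

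Other embryoid cells had enzyme levels of their own. In the FIB-like clusters 7 (316 cells) and 10 (118 cells) Ezh1 was at 18.2 and 10.1 CPM and Ezh2 at 224 and 241 CPM, against 53.6 and 149.5 CPM in embryoid PrE-like and 17.4 and 253 CPM in embryoid EPI-like cells. Kdm3a was at 124 and 115 CPM and Kdm5b at 199 and 223 CPM in these clusters. The unnamed cluster 12 (84 cells) had a median mitochondrial share of 0.184%, with Kmt2c at 302, Setd7 at 126 and Setd8 at 449 CPM, the highest of all embryoid clusters, and Prmt1 at 98.2 and Ezh2 at 80.7 CPM, the lowest. These genes were singled out after their values were seen.

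Over the 4 TE-like and the 3 PrE-like clusters of the blastocyst 22 (43.1%) and 10 (19.6%) of the 51 members had intervals apart, against 35.7% and 23.4% of all genes. Levels at least 2-fold apart were found for 26 members (51%) and 5 members (9.80%), against 48.2% and 21.4% of all genes. The median ratio of highest to lowest was 2.11 and 1.46 for members and 2.14 and 1.45 for all genes, so that the wider spread among TE-like clusters was not particular to the members. Smyd1 was at 65.6, 46.9 and 65.0 CPM in TE-like clusters 2, 5 and 7 and at 14.6 CPM in cluster 8. Cdx2, a trophectoderm transcription factor, was at 352, 349, 310.2 and 60.0 CPM in the same order, so that both were lowest in cluster 8, where Elf5 was highest at 564 CPM. Cluster 7, with a G2/M sum of 254 CPM, was lowest in Ezh2 at 56.7 CPM and Prmt5 at 43.4 CPM and highest in Setd8 at 435 CPM. In the other TE-like clusters, with G2/M sums of 1604 to 2728 CPM, Ezh2 lay between 119 and 189 CPM.

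The EPI-like cells of the blastocyst fell into clusters 6 (82 cells) and 0 (175 cells). Kdm5b, at 589.7 and 703 CPM, and Kdm3a, at 182 and 201 CPM, were high in both. Ehmt2 was higher in cluster 6, at 153 against 84.0 CPM (log2 ratio 0.86, 0.53 to 1.21). Kmt2c was lower there, at 90.0 against 195 CPM (-1.11, -1.47 to -0.78), as were Kmt2a at 52.7 against 102 CPM and Kmt2d at 45.9 against 85.2 CPM. These 4 genes were singled out after their values were seen, and the clusters differ in depth, with medians of 13744.5 and 9061 UMIs per cell.

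Kdm5d, the Y-linked relative of Kdm5c, had 0.311 CPM in embryoid PrE-like and 2.68 CPM (2 UMIs) in embryoid EPI-like cells, against 1.67, 6.06 and 5.71 CPM in blastocyst TE-like, PrE-like and EPI-like cells. Other Y-linked genes followed the same order between the PrE-like profiles, with Eif2s3y at 4.55 CPM in embryoid and 31.5 CPM in blastocyst PrE-like cells and Ddx3y at 21.1 and 67.2 CPM. Embryoid EPI-like cells had 29.5 CPM of Eif2s3y and 33.5 CPM of Ddx3y. Xist, whose RNA coats the inactive X chromosome, had 0.505 and 2.68 CPM in embryoid PrE-like and EPI-like cells, against 142, 182 and 3.04 CPM in blastocyst TE-like, PrE-like and EPI-like cells. The X-linked members Kdm5c, Kdm6a and Suv39h1 are read beside these values, and the part of sex chromosome content in their levels was not tested.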

How the data were processed

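Counts of unique molecular identifiers (UMIs) per gene symbol and cell barcode were used as deposited by the authors, whole numbers per the file headers. STAR 2.7.1a, featureCounts 1.6.4 of Subread, UMI-tools 1.0.1 and bcl2fastq 2.19.1.403 appear in the submitters' processing notes, with mm10 as the build; no source used here gives settings, annotation, strand or how cells were called. The embryoid library had 28923930 UMIs in 5546 barcodes and the blastocyst library 11047555 UMIs in 1288 barcodes, each from 6000 labelled cells.

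Barcodes with at least 1000 UMIs, 500 genes and at most 25% mitochondrial UMIs were kept (5328 embryoid and 1097 blastocyst). Scrublet called 18 blastocyst cells, which were removed, and 0 embryoid cells, so in effect it did not work there. Each library was clustered on its own (scanpy 1.11.5, leidenalg 0.10.2, igraph 0.11.9; 2000 variable genes without ribosomal, mitochondrial, enzyme and list genes, 30 components, 20 neighbours, resolution 1, seed 1). A cluster was named from a marker list when at least 3 markers of a class were high, at 20 CPM or more and 0.333 of their highest cluster, and stayed unnamed where its leading genes marked another class, its share of mitochondrial UMIs fell below 0.1 of that in its library, or it was shallow; this scoring was written with marker levels known.

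UMIs were summed per class. Ratios are of CPM + 1, for genes with a mean of 5 CPM or more. Levels have exact Poisson intervals, ratios exact conditional binomial intervals and shares exact Clopper-Pearson intervals, at 95%, and PCR and sampling of embryos are outside them. A zero limit is 3 counts. Members named by size were those at least 2-fold apart with 10 CPM or more in a profile, at most 8 per direction; further members were fixed by their role. Members, lists and rules were chosen with earlier results of these data known. Other software comprised scipy 1.17.1, numpy 2.4.6, matplotlib 3.10.9 and pandas 2.3.3 under Python 3.11.15, and the contrast code was checked on simulated counts.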

Additional observations from a re-analysis of the deposited data

How the results depend on the processing

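With 1 library per group, leaving out a replicate was not possible. No paired analysis was possible because each group has 1 library and no test. Of 64 named log2 ratios, 31 stayed at 1 or more in size under every one of 13 alternatives, and 6 changed sign, all when only cells at or under the median cell cycle share of UMIs (0.366%) were kept, which left 10 of 110 embryoid EPI-like cells. The 6 were, for embryoid over blastocyst EPI-like cells, Setd4 (-3.12), Prmt7 (-0.0396) and Kdm6b (0.19), and, for embryoid PrE-like over EPI-like cells, Setd1b (-0.0863), Suv39h2 (3.24) and Setd4 (3.47). Of the counts of members past 2-fold, 150 of 182 values lay within 1.5 times the reported count; the others follow.

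With a pseudocount of 10 CPM, 11 members were lower in TE-like over EPI-like, 2 in PrE-like over EPI-like, 4 in TE-like over PrE-like and 1 in embryoid over blastocyst PrE-like cells; in embryoid over blastocyst EPI-like cells 3 were higher and 4 lower, in embryoid PrE-like over blastocyst TE-like cells 13 higher, and in embryoid PrE-like over EPI-like cells 5 higher and 2 lower. With median-of-ratios scaling, TE-like over EPI-like had 6 higher and 8 lower, TE-like over PrE-like 2 higher, and embryoid PrE-like over TE-like 5 lower. Without a filter, the last contrast had 2 lower. With a mean of 20 CPM or more, TE-like over EPI-like had 1 higher, TE-like over PrE-like 0 higher and 4 lower, embryoid over blastocyst PrE-like 2 higher, embryoid over blastocyst EPI-like 3 higher, embryoid PrE-like over TE-like 0 lower and over embryoid EPI-like 5 higher; fewer genes enter there. In cells with at most 10% mitochondrial UMIs, TE-like over EPI-like had 5 higher, PrE-like over EPI-like 5 higher and TE-like over PrE-like 11 lower. With the mean over cells of each cell's CPM, TE-like over EPI-like had 1 higher, PrE-like over EPI-like 3 lower, embryoid over blastocyst PrE-like 7 higher and embryoid over blastocyst EPI-like 4 lower. In cells of low cell cycle share, PrE-like over EPI-like had 8 higher, TE-like over PrE-like 17 lower, embryoid PrE-like over TE-like 3 lower and over embryoid EPI-like 2 lower. Where no construction of the alternative shows it, the cause was not tested. These counts stand without the share of all genes under the same alternative, so they do not show a change particular to the members. Depth limits the embryoid EPI-like profile most, where 1 UMI is 1.34 CPM.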
